A study of Rattus norvegicus with 3 samples.

Results

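A set of 8 transcription factor genes of the immediate early class was followed in rat kidney inner medulla: *Egr1*, *Egr2*, *Fos*, *Fosl1*, *Jun*, *Junb*, *Atf3* and *Nr4a1*. They were chosen by gene symbol as probes annotated with that symbol alone, and all 8 were found, with 1 probe each, among 4390 genes on the array. The study set inner medulla RNA of rats on lithium for 1 month against that of control rats on 3 dual-colour arrays, with lithium RNA in the red channel and control RNA in the green channel every time. Arrays 1 and 2 carried RNA of 2 rats per channel and array 3 carried RNA of 1 rat per channel, with different rats on each. The titles of all 3 arrays read Li-NDI, a usual short form of lithium-induced nephrogenic diabetes insipidus. The labels used here give no strain, sex, age or lithium dose. The value of a probe was the deposited log ratio minus the median of its array, so 0 marks the middle probe of an array. A value above 0 was taken as more RNA in lithium-treated medulla. The channel labels make this likely, but the table did not state it, and the log base was not stated either. Of the 8 genes, 6 had a value on all 3 arrays and entered the test. *Egr2* and *Atf3* had no value on array 3 and were tested only in a fit that admits features on at least 2 arrays.

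Immediate early genes are switched on within minutes by growth factors, hormones, osmotic stress or injury, without the need for new protein synthesis. The kinases of the MAP kinase cascade activate factors such as SRF with its ternary complex partners and CREB, which already sit at these promoters, and the resulting messages are short-lived. EGR proteins bind GC-rich sites through zinc fingers, FOS and JUN proteins pair into the AP-1 factor, ATF3 pairs with JUN or with itself, and NR4A1 is an orphan nuclear receptor. In the inner medulla the cells live at high osmolality, and in cultured medullary cells *Egr1* and *Fos* are known to respond to hypertonic medium and urea. Lithium inhibits GSK3, a kinase that phosphorylates JUN and CREB.

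The promoters of *Egr1*, *Egr2* and *Nr4a1* are shown because the first and the third are the members with the highest mean ratios, and the second is the close relative of the first. RefSeq promoter windows (GRCr8, 250 bases before to 50 after the start) were matched for 5 of the 8 members. Capitals mark every CArG box, the SRF binding motif, and every CRE core TGACG, the shorter form of the CREB motif, on either strand. The windows are chr18:26736828-26737127 (plus strand) for *Egr1*, chr20:21054392-21054691 (minus strand) for *Egr2* and chr7:134259888-134260187 (plus strand) for *Nr4a1*, whose start in this table lies inside the annotated gene.
Egr1: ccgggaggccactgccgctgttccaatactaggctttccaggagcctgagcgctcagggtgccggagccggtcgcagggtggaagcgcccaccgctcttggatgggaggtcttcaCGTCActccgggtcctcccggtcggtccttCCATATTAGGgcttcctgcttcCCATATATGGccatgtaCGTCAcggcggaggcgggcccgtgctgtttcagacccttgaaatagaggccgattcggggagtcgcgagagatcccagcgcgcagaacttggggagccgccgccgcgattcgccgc
Egr2: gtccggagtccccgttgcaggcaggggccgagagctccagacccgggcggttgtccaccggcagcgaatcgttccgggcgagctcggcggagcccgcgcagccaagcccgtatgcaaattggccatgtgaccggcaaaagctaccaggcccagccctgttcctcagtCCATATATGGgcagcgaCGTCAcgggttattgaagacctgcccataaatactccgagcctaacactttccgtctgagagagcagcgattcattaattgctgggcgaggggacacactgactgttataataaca
Nr4a1: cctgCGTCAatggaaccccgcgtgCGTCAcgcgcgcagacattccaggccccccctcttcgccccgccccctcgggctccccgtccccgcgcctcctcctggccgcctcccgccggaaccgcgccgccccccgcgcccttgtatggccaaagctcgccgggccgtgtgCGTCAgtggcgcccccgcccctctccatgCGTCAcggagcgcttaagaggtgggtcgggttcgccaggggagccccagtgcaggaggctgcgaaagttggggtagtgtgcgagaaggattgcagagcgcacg

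*Egr1* held 2 CArG boxes, beginning at −105 and −83 from the start, and *Egr2* held 1, also at −83. Both had a CRE core at −66, and *Egr1* had another at −135. *Nr4a1* had no CArG box in its window, but it had 4 CRE cores, at −246, −226, −82 and −53, and an EGR site (GCGNGGGCG) at −73. The windows of *Fosl1* and *Junb* had 2 and 1 CRE cores and no CArG box. Over all 33469 rat promoter windows of the same length, 1.64% held a CArG box, 21.2% a CRE core and 4.98% an EGR site. The full CRE TGACGTCA, which contains the core, was in none of the 5 windows and in 1.83% of all windows. The AP-1 motif TGANTCA and the NR4A motif AAAGGTCA were in none of the 5 and in 7.33% and 1.43% of all windows. Both strands were searched, and a match describes letters in the window and no more.

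The members did not share 1 direction: *Egr1* had the highest ratio on every array, *Nr4a1* and *Fos* were above 0 on every array by smaller amounts (not on array 1 before centring), *Fosl1* and *Junb* lay near 0, and *Jun* was mostly below it. None of the 6 tested members passed a limma adjusted p of 0.05, against 0.445% of all 3819 genes and unnamed probes measured on all 3 arrays. At an unadjusted p of 0.05, 1 member passed, *Egr1*, against 17.2% of all. Across all features 9 were called higher and 8 lower, a split that was 35 and 63 after scaling the arrays to equal spread and 11 and 16 after quantile normalization. No array had the dyes swapped, so a dye effect and lithium cannot be told apart for any member. RNA of inner medulla with all its cell types was used, so fewer cells of a type and less RNA per cell cannot be told apart.

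**Figure D1:**
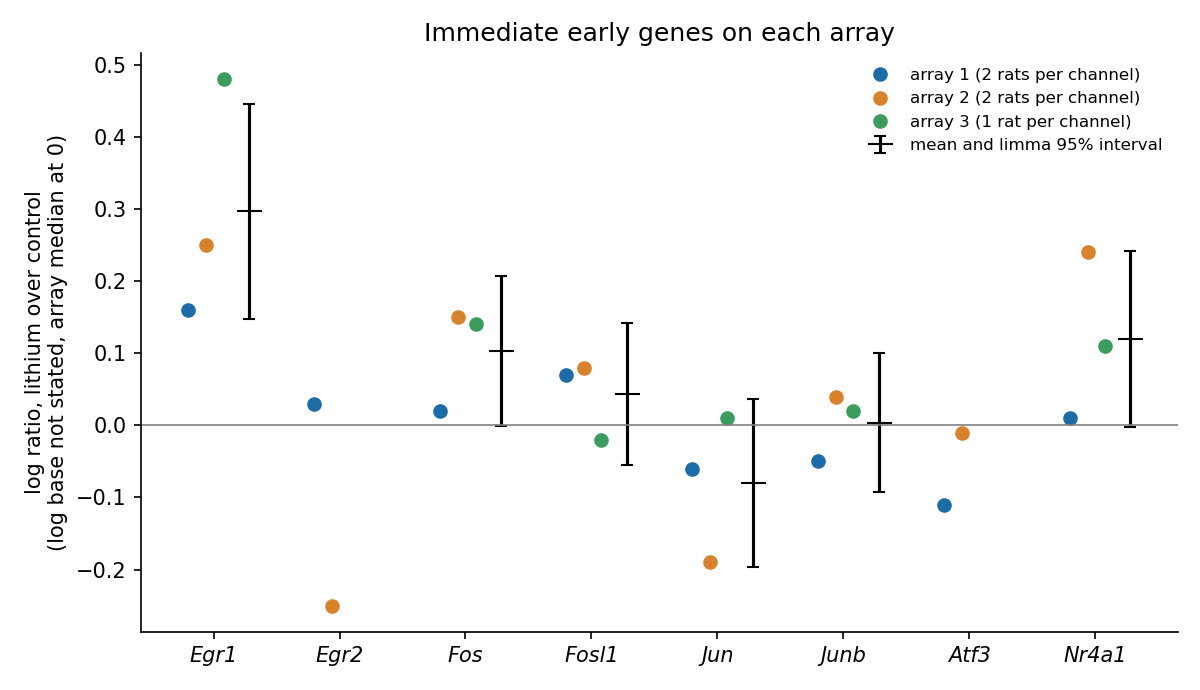
Log ratio of lithium over control (vertical axis, log base not stated, array median at 0) for each of the 8 genes. Coloured points are the 3 arrays, and the black bar is the mean with its 95% interval from limma for the 6 genes with 3 values; *Egr1* is above 0.1 on every array, and *Egr2* and *Atf3* have only 2 points.

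*Egr1* encodes the zinc finger factor EGR1, the best-studied early response factor of this family. Its ratio was 0.16 on array 1, 0.25 on array 2 and 0.48 on array 3. All 3 values were above 0, and the array with single rats gave the highest. The mean was 0.30 ± 0.17 (SD, n = 3), which is 1.98-fold if the base is 10 and 1.23-fold if it is 2. The 95% interval of the limma fit ran from 0.15 to 0.45, and the limma adjusted p over all features was 0.117. Of the 3819 features, 9 had a higher mean ratio and 67 a smaller p-value. Its spread between arrays was wider than that of 94.3% of features.

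The place of *Egr1* within each array's ratios was high throughout. It stood above 96.5% of the 4935 features on array 1, above 99.3% of the 5023 on array 2 and above 99.9% of the 3851 on array 3. Only 3 features on array 3 had a higher ratio, against 139 on array 1 and 29 on array 2. Ratios spread differently on the 3 arrays: among features measured on all of them the SD was 0.0992, 0.135 and 0.114, so a rank and a ratio need not follow each other. Arrays 1 and 2 correlated at a Pearson r of 0.46 across these features, arrays 1 and 3 at 0.48, and arrays 2 and 3 at 0.16. These correlations are across genes of arrays with a shared design and describe the arrays only.

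**Figure D2:**
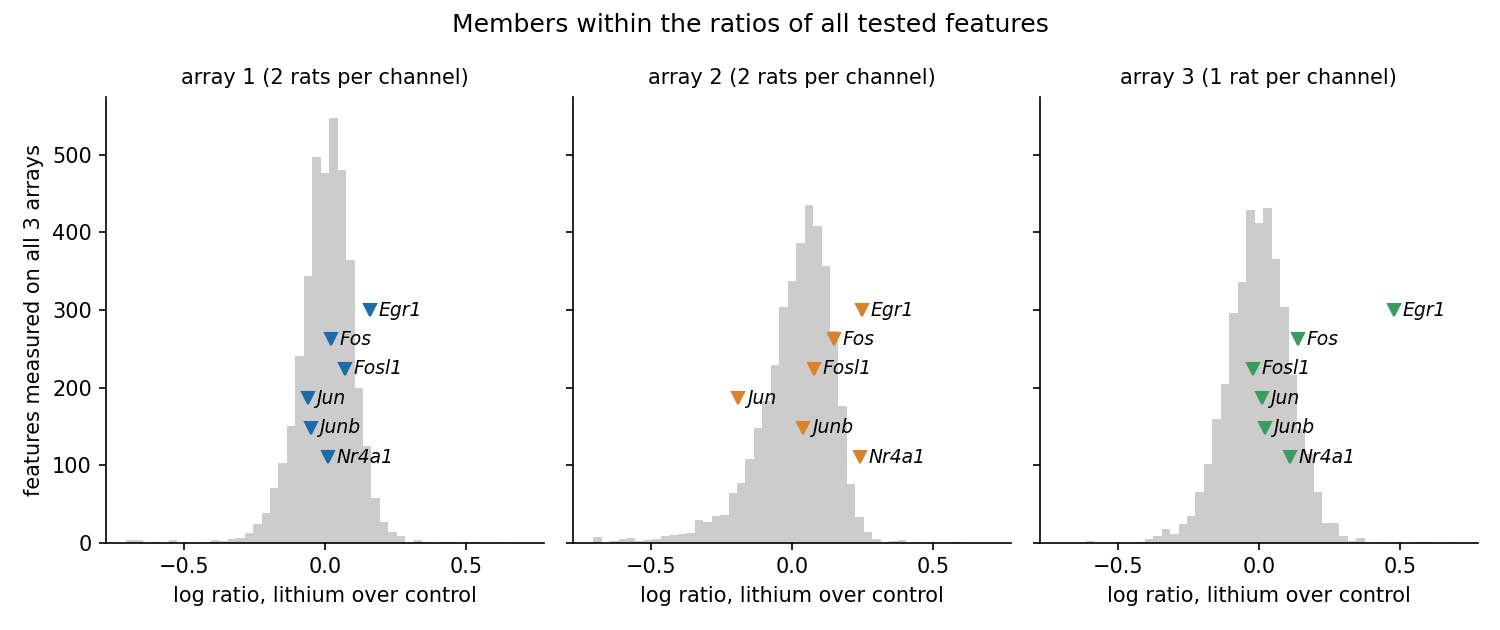
Histograms of the log ratios (horizontal axis, lithium over control, log base not stated) of the 3819 features measured on all 3 arrays, 1 panel an array, with values beyond 0.7 drawn at the edge. Triangles mark the 6 members with 3 values at arbitrary heights; *Egr1* is in the right tail of each panel, at 0.16, 0.25 and 0.48, whereas *Junb* stays between −0.05 and 0.04.

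Whether *Egr1* passed the threshold depended on the processing setting, and the cause was not tested. After scaling to equal spread its mean ratio was 0.31 (limma adjusted p = 0.0335), with a robust variance prior 0.30 (adjusted p = 0.0231) and with array weights 0.20 (adjusted p = 0.0122). These settings called 2.57%, 2.46% and 27.6% of all features, more than the 0.445% above in each case. The array weights rested on array 1, whose weight was 4.52 against 0.371 and 0.596 for arrays 2 and 3. Over the 14 settings tried the adjusted p ran from 0.0122 to 0.742, and 3 of them passed. Without array 1, 2 or 3 the mean of *Egr1* was 0.37, 0.32 or 0.21.

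The *Egr1* spot lay in a printing block with many empty probes on array 3. Of the 180 probes of that block, 93 had no value there, which is 51.7%, against 25.6% of all probes, and no other of the 32 blocks had more. The block's median was 0 on arrays 1 and 2 and −0.03 on array 3. Measured from its own block, *Egr1* was at 0.16, 0.25 and 0.51, and no probe with a value in that block was higher on array 2 or array 3. The 2 adjoining spots with a value on array 3, which carry *Ece1* and *Lpl*, read −0.01 and −0.23 there. The ratio of *Egr1* was thus as large within the block as across the array, and the part that missing spots have in it was not tested.

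*Egr2*, the Krox20 factor known from myelination and hindbrain patterning, gave no common direction. Its ratio was 0.03 on array 1 and −0.25 on array 2, with no value on array 3. The 2 arrays thus lay on either side of 0. The mean was −0.11 ± 0.20 (SD, n = 2). Probes without a value on array 3 read low as a class, with medians of −0.08 on array 1 and −0.18 on array 2. Against those probes, *Egr2* was higher than 80.0% on array 1 and 37.3% on array 2. *Egr3* and *Egr4*, the remaining genes of the family, were at −0.07, 0.07 and −0.22, and at 0.04, −0.10 and 0.20. Neither had 1 sign on all arrays, and their limma adjusted p-values were 0.557 and 0.733. No EGR gene other than *Egr1* was thus above 0 on each array where it was measured.

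*Fos*, which encodes the FOS subunit of AP-1, had ratios of 0.02, 0.15 and 0.14 on arrays 1, 2 and 3. All were above 0, and array 1 was close to it, at exactly 0 as deposited. The mean was 0.10 ± 0.07 (SD, n = 3), 1.27-fold in base 10 or 1.07-fold in base 2. Its 95% interval ran from −0.000781 to 0.21, with a limma adjusted p of 0.293. *Fos* shares the printing block of *Egr1*, and measured from that block it was at 0.02, 0.15 and 0.17.

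*Fosl1*, which encodes FRA-1, a FOS relative that lacks a transactivation domain of FOS, stayed close to 0. It read 0.07, 0.08 and −0.02, with a mean of 0.04 ± 0.06 (SD, n = 3) and a 95% interval from −0.06 to 0.14 (limma adjusted p = 0.632). The first 2 arrays were above 0 and the third just below it. *Fosl2*, the gene of the FRA-2 subunit, had the same signs, with 0.11, 0.17 and −0.07 as the mean of 2 probes (adjusted p = 0.558). For *Fosl1* the interval leaves room for a change of 1.39-fold upward or 0.881-fold downward in base 10.

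The JUN subunits did not follow *Fos*. *Jun*, whose product is the main partner of FOS in AP-1, read −0.06, −0.19 and 0.01. The mean was −0.08 ± 0.10 (SD, n = 3), the 95% interval ran from −0.20 to 0.04, and the limma adjusted p was 0.440. Array 2 gave most of this value, since without array 2 the mean was −0.025. *Junb*, a JUN relative that can restrain JUN activity, read −0.05, 0.04 and 0.02, with a mean of 0.00333 ± 0.05 (SD, n = 3, adjusted p = 0.973). Its sign depended on the setting: the mean was below 0 with no centring (−0.0167), with centring on the features measured on all arrays (−0.0133), with scaling (−0.000751), with quantile normalization (−0.00222), with array weights (−0.0363), and without array 2 (−0.015) or array 3 (−0.005). *Jund*, the third JUN gene, was equally near 0, at −0.02, −0.03 and 0.08 (adjusted p = 0.929).

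*Atf3*, a stress-induced factor that is known as a marker of injured tubules in other kidney models, was not above 0 on either array that measured it. It read −0.11 on array 1 and −0.01 on array 2, a mean of −0.06 ± 0.07 (SD, n = 2). On array 2 it was higher than 81.3% of the probes that had no value on array 3, and on array 1 higher than 42.3% of them. Its relative *Atf2*, a constitutive factor activated by stress kinases, read 0.11, 0.13 and 0.11 as the mean of 2 probes (limma adjusted p = 0.213). In the limma fit of features with a value on at least 2 arrays, *Atf3* had an adjusted p of 0.585 and *Egr2* one of 0.512, where *Egr1* had 0.125.

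*Nr4a1*, which encodes the orphan receptor NUR77, had ratios of 0.01, 0.24 and 0.11. All were above 0, array 1 only just (−0.01 as deposited, before centring), and on array 2 it stood above 99.0% of features, at nearly the level of *Egr1*. The mean was 0.12 ± 0.12 (SD, n = 3), 1.32-fold in base 10 or 1.09-fold in base 2. The 95% interval ran from −0.00251 to 0.24 and the limma adjusted p was 0.2995. Without array 2 the mean was 0.06. *Nr4a2*, which encodes NURR1, had a like pattern, with 0.02, 0.16 and 0.20 (mean 0.13, adjusted p = 0.246). *Nr4a3*, the third gene of this family, read 0.12 and −0.58 on arrays 1 and 2 and had no value on array 3.

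Of the 6 tested members 3 were above 0 on all 3 arrays and 0 were below 0 on all 3, against 24.1% and 14.6% of all features. With so few members these counts describe the genes and are no sign of a shift of the class. The median ratio of the 6 was 0.015 on array 1, 0.115 on array 2 and 0.065 on array 3, against 0.01, 0.04 and 0 for all features. The mean ratios had a median of 0.0733, against 0.0133 for all features. By mean ratio 5 members were above 0 and 1 below, against 55.7% and 42.7% of all features. *Egr1* exceeded each of the other 5 on every array, by as little as 0.01 against *Nr4a1* on array 2 and as much as 0.50 against *Fosl1* on array 3. The mean difference was 0.18 ± 0.18 to *Nr4a1*, 0.19 ± 0.13 to *Fos* and 0.38 ± 0.14 to *Jun* (SD, n = 3). An exact sign permutation test on 3 arrays cannot give a p below 0.25, so it cannot decide any of the 15 differences between members. No other test of these differences was made. Among the 10 pairs without *Egr1*, 5 had 1 sign on all arrays, such as *Fos* over *Junb* by 0.07, 0.11 and 0.12. Neighbours in the order of means, such as *Nr4a1* and *Fos* or *Fosl1* and *Junb*, differed by less than the spread between arrays.

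Genes with the ratios nearest to each member were found by Euclidean distance over the 3 arrays among 3394 other named genes. The nearest to *Egr1* were *Grik2*, a glutamate receptor subunit gene (0.22, 0.25 and 0.37, distance 0.125), and *Nrp1*, the neuropilin gene (0.21, 0.19 and 0.37, distance 0.135). Neither passed the limma threshold (adjusted p = 0.0726 and 0.0918). The nearest to *Nr4a1* were *RT1-DMb* and *Zfp689*, at distances of 0.0316 and 0.0412. *Fos* had *Ddx5* and *Pkib*, *Fosl1* had *Hemgn* and *Atp1a4*, and *Junb* had *Hnrnpa3* and *Serpina5*, all within 0.0141. *Jun* had *Amelx* (0.0201) and *Gabrg1* (0.0300), of which the *Amelx* value averages 4 probes that ran from −0.54 to 0.21 on array 2. Not all of these probes had a value on arrays 1 and 3.

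The relatives of these families were mostly above 0 but were not called. Of 21 listed relatives 11 were measured on all arrays, 9 with a mean above 0 and 2 below. Over all features 55.7% had a mean above 0 and 42.7% below. The median of the relatives was 0.0667, against 0.0133 for all features. Limma called 0 of the relatives, against 0.445% of all features. Without adjustment, 3 of the relatives were higher and 0 lower at a p under 0.05, against 9.71% and 7.52% of all features. These 3 were *Mafg*, a small MAF partner of AP-1-like factors (mean 0.14, adjusted p = 0.177), *Atf2* and *Nr4a2*. The 2 probes of *Mafg* read 0.16, 0.19 and 0.27, and 0.01, 0.20 and 0.00, so they disagree on arrays 1 and 3.

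Other early response genes showed no common direction. Of 30 measured genes 13 were above 0, 16 below and 1 at 0, against 55.7% above and 42.7% below over all features. The median of the 30 was −0.005, against 0.0133 for all features, and limma called 0. Without adjustment, 4 higher and 4 lower ones had a p under 0.05, against 9.71% and 7.52% of all features. *Plk2*, a polo-like kinase gene of the early response, read −0.22, −0.42 and −0.15 (mean −0.26, adjusted p = 0.122). It lay below 0 on every array, opposite to *Egr1*. *Ccn2*, the connective tissue growth factor gene, was at 0.19, 0.11 and 0.16 (mean 0.15, adjusted p = 0.15), and *Btg1*, an antiproliferative gene, at 0.11, 0.12 and 0.17 (mean 0.13, adjusted p = 0.176).

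**Figure D3:**
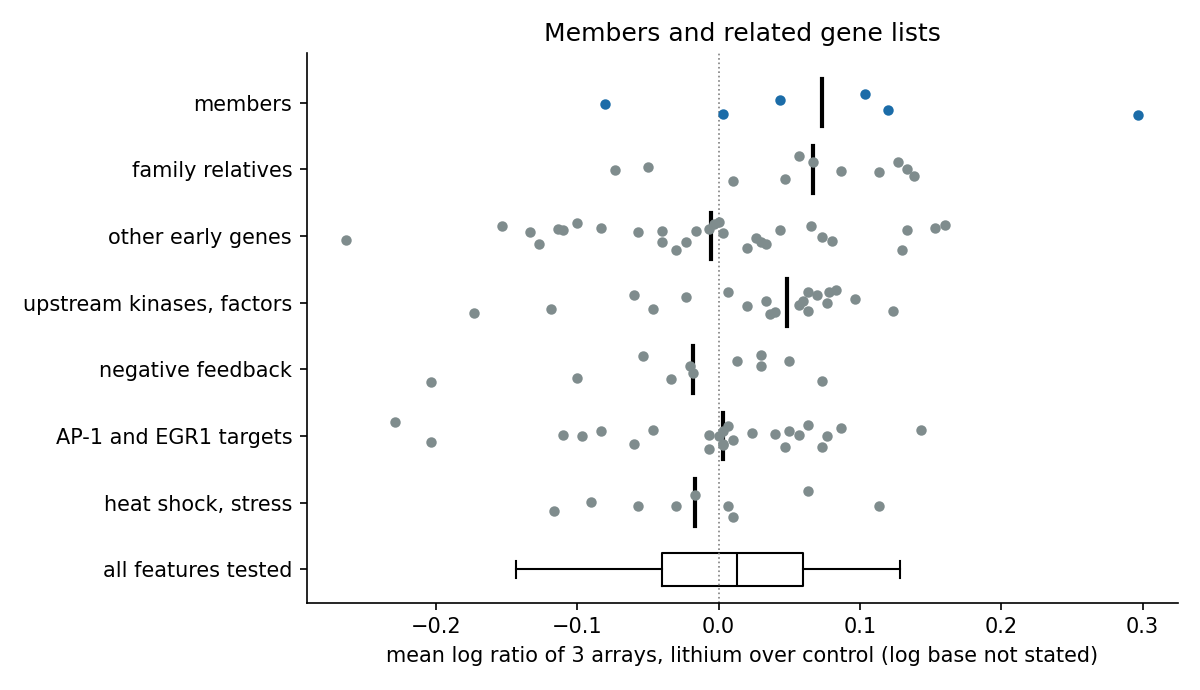
Mean log ratio of 3 arrays (horizontal axis, lithium over control, log base not stated) for the 6 members with 3 values and the genes of 6 related lists, 1 point a gene with random vertical scatter; black ticks are medians. The box holds the middle of all 3819 features with whiskers at their 5th and 95th percentiles; *Egr1*, at 0.30, is the rightmost member, and the list medians lie between −0.0183 and 0.0667.

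Upstream and feedback genes gave no call. Of 20 measured kinases and factors of the pathway that switches these promoters on, 15 were above 0 and 5 below, against 55.7% and 42.7% of all features, and limma called 0. Their median was 0.0483, against 0.0133 for all features, and without array 2 it was 0.0125, against 0.005 for all features. Without adjustment, 2 had a p under 0.05 in each direction, against 9.71% of all features higher and 7.52% lower. *Creb1*, the gene of the CRE-binding factor, read 0.09, 0.12 and −0.10 (adjusted p = 0.767) and had no common sign. *Mapk9*, a JUN kinase gene, averaged −0.17 (adjusted p = 0.140), but its 2 probes read −0.28 and −0.60, and −0.03 and 0.11, on arrays 1 and 2, and only the second had a value on array 3. *Mapk14*, the p38 gene, averaged −0.12 (adjusted p = 0.229), also from probes that disagree, and *Araf*, a RAF kinase gene, averaged 0.12 (adjusted p = 0.258). Of 11 feedback genes 5 were above 0 and 6 below, and limma called 0. Their median was −0.0183, with a sign that depended on the processing setting. Without adjustment, 0 higher and 2 lower ones had a p under 0.05, against the same 9.71% and 7.52%. *Nab1*, a corepressor of EGR1 that binds it directly, read −0.01, −0.04 and −0.05 (adjusted p = 0.700). *Dusp1*, a MAP kinase phosphatase that is itself an early gene, read −0.16, 0.11 and −0.11 (adjusted p = 0.677). *Ptpn7*, a phosphatase that acts on MAP kinases in blood cells, read −0.31, −0.09 and −0.21 (adjusted p = 0.142).

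Genes known as targets of AP-1 or EGR1 in other tissues gave no call. Of 25 measured ones 15 were above 0, 9 below and 1 at 0, against 55.7% above and 42.7% below over all features. The median of the 25 was 0.00333, against 0.0133 for all features, and limma called 0. Without adjustment, 1 higher and 3 lower ones had a p under 0.05, against 9.71% and 7.52% of all features. *Timp3*, a metalloprotease inhibitor gene, read −0.29, −0.13 and −0.19 (adjusted p = 0.126). *Hbegf*, an EGF-like growth factor gene, read −0.12, −0.05 and −0.12 (adjusted p = 0.278). *Cd44*, the hyaluronan receptor gene, averaged −0.23 (adjusted p = 0.176) over 5 probes that ran from −0.76 to 0.19 on array 2. Not all 5 had a value on arrays 1 and 3. Those with values on all arrays read 0.01, −0.50 and −0.11, and −0.02, 0.19 and −0.10. These 3 genes were named for their small p-values, and the median of the whole list was close to 0.

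Markers of tissue handling and of cell types were read beside these values. Among 9 heat shock and stress genes 4 were above 0 and 5 below (median −0.0167), against 55.7% and 42.7% of all features. Limma called 0 of the 9. At an unadjusted p of 0.05, 1 was higher and 0 lower, against 9.71% and 7.52% of all features. The higher one was *Hsp90ab1*, at a mean of 0.11 (limma adjusted p = 0.230). Of 11 collecting duct markers 10 were above 0 and 1 at 0, with a median of 0.13, and limma called 2 higher, *Hsd11b2* and *Krt19*, against 0.236% of all features. Of these 11, 9 were above 0 on all 3 arrays, against 24.1% of all features. Without adjustment 8 of the 11 were higher and 0 lower at a p under 0.05, against 9.71% and 7.52%. This list, like the others, was chosen with earlier results of these data known, so its counts are no independent result. Leukocyte markers were above 0 in 7 of 11, endothelial markers in 2 of 5, stromal markers in 6 of 13 and limb or proximal tubule markers in 4 of 7, with medians of 0.0267, −0.00667, −0.0133 and 0.0733 and 0 calls by limma. Without adjustment, 3, 1, 1 and 2 of these last markers were higher and 1, 0, 0 and 2 lower at a p under 0.05. Over all features these shares were 9.71% and 7.52%. The part of cell composition in the ratio of *Egr1* was not tested. Ratios hold no level, so the tissue itself could not be checked against its markers, and no summed marker level can be given.

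**Figure D4:**
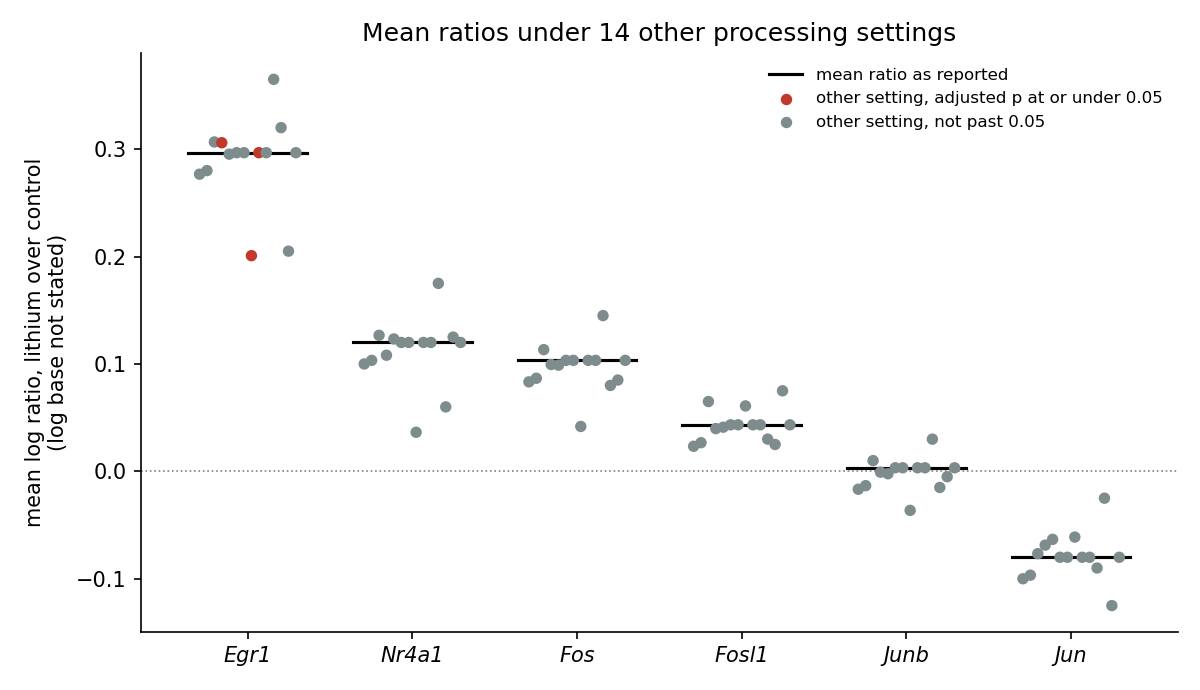
Mean log ratio of lithium over control (vertical axis, log base not stated) of the 6 members with 3 values under 14 other processing settings (points) and as reported (black line). Red points passed a limma adjusted p of 0.05; they occur for *Egr1* in 3 settings, and the points of *Junb* lie on both sides of 0, in 7 settings below it.

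*Egr1* had the highest mean of the 6 in 14 of 14 settings and *Jun* the lowest in 14 of 14, while the sizes moved. Some settings leave every mean as it was, since each of the 6 has 1 probe, so the order was fixed there. These were features on at least 2 arrays, single probes, a robust prior, no prior and medians over the probes of a gene. *Egr1* ranged from 0.20 to 0.37, *Nr4a1* from 0.04 to 0.18, *Fos* from 0.04 to 0.15, *Fosl1* from 0.02 to 0.08 and *Jun* from −0.13 to −0.03. These ranges hold leave-one-out values as well as changes of centring, scaling and variance model. The lower ends of *Nr4a1* and *Fos* came from the array weights, which favour array 1, where both were near 0. Apart from *Egr1*, no member passed in any of the 14 settings, and the lowest adjusted p among them was 0.118, for *Fosl1* with array weights.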

How the data were processed

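Per the labels, each array compared lithium RNA (channel 1) with control RNA (channel 2). The deposited score of a probe was a log ratio with 2 decimals, and the authors' scanner, background correction, normalization and log base are not given in the sources used here. Values numbered 5582, 5682 and 4287 of 5760 probes on arrays 1, 2 and 3, with medians of −0.02, −0.04 and 0, and no spot intensities were used, so precision rests on the number of arrays. Probes were named from the platform annotation: 5064 had 1 symbol, 9 several and the rest were not listed, and 5043 gene IDs matched RefSeq (GRCr8).

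Each array's median was subtracted, probes of 1 gene were averaged, and the 3819 features on all 3 arrays were fitted with limma 3.58.1 in R 4.3.3 (intercept only, eBayes, two-sided, Benjamini-Hochberg over all features). The fit was tested on simulated data. The labels name different rats on each array. The members and lists were chosen with earlier results of these data known. Genes named outside the members were the 3 with the smallest p in each list, 15 genes of the same families and pathways where measured, and the 2 nearest to each member; *Ece1* and *Lpl* were named after their values were seen. Not every one is printed. Promoters were read from a RefSeq table. Figures used Python 3.11.15 and matplotlib 3.10.9.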

Additional observations from a re-analysis of the deposited data

How the results depend on the processing

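Across all features 17 were called, and other settings gave 98 after scaling to equal spread, 27 after quantile normalization, 40 with features on at least 2 arrays, 11 with single probes, 1055 with array weights, 94 with a robust prior, 8 with no prior, 49 at an adjusted p of 0.1, and 0 with any 1 array left out, with 172, 606 and 445 features under an unadjusted 0.05 when array 1, 2 and 3 was dropped. *Egr1* passed with scaling at 0.31, with a robust prior at 0.30 and with array weights at 0.20. *Junb* was below 0 with no centring (−0.0167), centring on features measured on all 3 arrays (−0.0133), scaling (−0.000751), quantile normalization (−0.00222) and array weights (−0.0363), and between −0.015 and 0.03 with 1 array left out. The cause of these differences was not tested. *Fos*, *Fosl1*, *Jun* and *Nr4a1* kept their sign and stayed outside the threshold in all 14 settings. The sign could not change with features on at least 2 arrays, single probes, a robust prior, no prior or medians over probes. Of 143 list medians under other settings, 121 moved by no more than the spread between arrays and 22 by more. The median of the feedback genes, −0.0183 as reported, did not keep its sign. It was −0.0383 with no centring, but 0.00389 with quantile normalization and 0.0103 with array weights. Without array 1, 2 or 3 it was 0.015, 0.005 or 0. Each array set lithium RNA directly against control RNA, so the fit to the ratios already used this pairing. The arrays form 1 group of such comparisons. The 3 arrays, 1 dye orientation and unknown spot brightness limit every value.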
